A study of Mus musculus with 2 samples.

Results

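The DNA damage response and repair genes are a set of 41 genes, picked by name, of the 19537 genes in the matrices, and they were followed in microglia of mice lacking PARK7/DJ-1 (KO) and of wildtype (WT) mice. All 41 genes were found by symbol. The brains were taken 24 h after peripheral lipopolysaccharide (LPS), a bacterial wall component that sets off systemic inflammation, and CD11b+CD45int cells were sorted by flow cytometry and run on Drop-seq, which captures the 3' ends of transcripts on barcoded beads. The groups, KO LPS and WT LPS, had 1 library each, and each library pooled 2 mice, 1 female and 1 male. Both genotypes came from littermates of 3 and 4 months of age. The KO mice carried a gene-trap insertion in Park7, in all tissues and from before birth (B6;129P2-Park7Gt(XE726)Byg/Mmucd, backcrossed to C57BL/6NCrl), and both groups received LPS. Without a replicate library, no test between genotypes was possible. Each value is given with its exact 95% counting interval in brackets, which covers counting error only and not the spread between mice.

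Cells repair broken or altered DNA by separate pathways. Homologous recombination mends double-strand breaks from a sister copy and is used in dividing cells, while end joining rejoins broken ends without a copy and serves cells at rest. Base excision repair removes oxidised or otherwise altered bases, nucleotide excision repair removes bulky lesions, and mismatch repair corrects errors of DNA copying, while the kinases Atm and Atr signal damage to checkpoints and to the transcription factor p53. Microglia rarely divide in the healthy adult brain and produce reactive oxygen species when activated.

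A cell was a barcode with at least 500 unique molecular identifiers (UMIs, each marking 1 captured transcript) and at least 100 genes. This left 320 cells with 381305 UMIs in KO LPS and 1427 cells with 1989011 UMIs in WT LPS, with medians of 963.5 and 1065.0 UMIs per cell. No cell barcode was shared between the libraries. Barcodes of 1 to 100 UMIs, which hold mostly RNA free in the suspension or fragments of cells, served as background. Levels are UMIs per 1e6 UMIs of the cells of a library (CPM), so that 1 UMI was worth 2.62 CPM in KO LPS against 0.503 CPM in WT LPS. Park7 itself had 1 UMI in KO LPS against 323 in WT LPS. All 20 microglia markers were detected in both libraries, with summed levels of 53369 and 44419 CPM. The 6 choroid plexus markers summed to 2135 CPM in KO LPS against 15.1 CPM in WT LPS, 9 astrocyte markers to 406 and 191 CPM, and 7 neutrophil markers to 0 and 64.4 CPM. A list of 25 inflammatory response genes summed to 949 CPM in KO LPS against 11892 CPM in WT LPS. The part of these differences in the results on repair genes was not tested. Because only 3' ends were counted, levels are compared between libraries and not between genes.

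Repair genes were sparse and their summed level was close in the 2 libraries. The 41 genes held 670 UMIs in KO LPS, or 1757 CPM (1627 to 1895), and 3830 UMIs in WT LPS, or 1926 CPM (1865 to 1988). KO LPS over WT LPS gave a ratio of 0.913 (0.839 to 0.991). Of the 41 genes, 36 had at least 20 UMIs over both libraries, and their median log2 ratio was 0.17, against 0.03 over the 9085 genes that passed the same filter. The sign of this median depended on the cells used. It was -0.20 when each cell was thinned to 500 UMIs, -0.05 without the 5% of cells with most UMIs and 0.01 as a mean of single-cell levels.

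Single repair genes differed more than the sum. With a prior count of 0.5, 6 of the 36 genes were at least 2-fold lower in KO LPS (16.7%, against 15.3% of all genes that passed the filter), namely Brca2, Blm, Chek1, Cdkn1a, Apex1 and Pms2. Chek1 had 0 UMIs in KO LPS and owed this to the prior, and with such genes at a floor of 3 counts the number was 5 (13.9%, against 14.6% of all genes). Palb2 alone was at least 2-fold higher (2.78%, against 13.5% of all genes). Over the alternatives the number of lower genes ran from 3, in cells with a Xist UMI and against the WT LPS cells with fewest inflammatory UMIs, to 8 with genes of at least 1 UMI, and the number of higher genes ran from 1 to 4. The counting interval of the ratio lay wholly below 1 for 7 genes (19.4%, against 18.7% of all) and wholly above 1 for 3 genes (8.33%, against 19.6% of all). For the other 26 genes the interval held 1. The share of lower genes was therefore near the background, and the share of higher genes was under it. The spread of the log2 ratios was also narrower among repair genes, with a standard deviation of 0.943 against 1.17 over all genes.

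**Figure D1:**
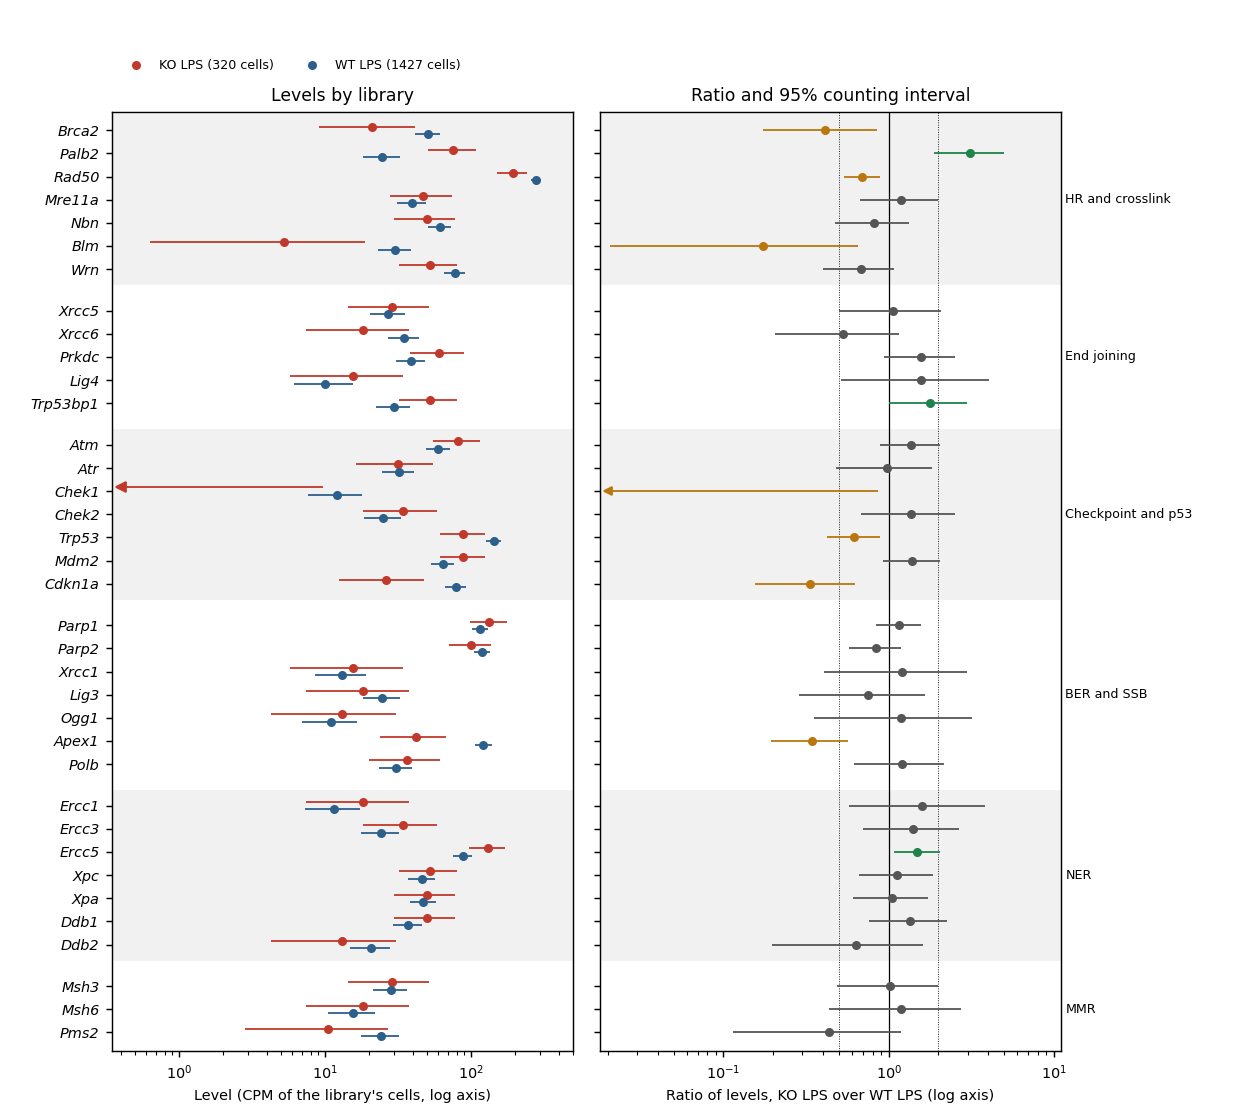
Left, level of each of the 36 genes with at least 20 UMIs in the cells of KO LPS (red) and WT LPS (blue), in CPM on a log axis, with exact 95% Poisson intervals as lines. Right, ratio of KO LPS over WT LPS with its exact 95% counting interval, orange where the interval lies below 1 (7 genes) and green where it lies above 1 (3 genes), and dotted lines at 2-fold. The arrow marks Chek1, with 0 UMIs in KO LPS, and HR, BER, SSB, NER and MMR stand for homologous recombination, base excision repair, single-strand break repair, nucleotide excision repair and mismatch repair.

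The genes of homologous recombination and crosslink repair were the group with the largest opposed differences. Together the 10 genes were at 456 CPM in KO LPS against 575 CPM in WT LPS (ratio 0.794, 0.673 to 0.932). Rad50 alone held 74 of their 174 UMIs in KO LPS and 556 of their 1143 in WT LPS. The same 10 genes were at 468 and 681 CPM in the barcodes of 1 to 100 UMIs (ratio 0.687, 0.533 to 0.881). A difference in the same direction was thus also present in those barcodes. Brca2, a core protein of homologous recombination, was at 21.0 CPM in KO LPS (8 UMIs in 7 cells) and at 50.8 CPM in WT LPS (101 UMIs in 77 cells), a ratio of 0.413 (0.174 to 0.846). In the barcodes of 1 to 100 UMIs Brca2 was at 40.3 and 98.2 CPM, a ratio of 0.410 (0.163 to 0.912). Palb2, which links Brca1 to Brca2, went the other way. It was at 76.1 CPM in KO LPS (29 UMIs in 27 cells) and at 24.6 CPM in WT LPS (49 UMIs in 42 cells), a ratio of 3.09 (1.88 to 4.98). The binding partners Brca2 and Palb2 thus had intervals on opposite sides of 1, with the UMIs of each spread over nearly as many cells as UMIs in KO LPS.

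Blm, the RecQ helicase that dissolves recombination intermediates, had 2 UMIs in KO LPS (5.25 CPM) and 60 in WT LPS (30.2 CPM), a ratio of 0.174 (0.0206 to 0.656). The second RecQ helicase of the set, Wrn, was at 52.5 and 77.4 CPM, and its ratio of 0.677 (0.403 to 1.08) held 1. The complex of Mre11a, Rad50 and Nbn, which senses broken ends, was unevenly placed. Rad50, its ATPase and the repair gene with most UMIs, was at 194 CPM in KO LPS against 280 CPM in WT LPS (ratio 0.694, 0.537 to 0.886). Its nuclease partner Mre11a was at 47.2 and 39.7 CPM (ratio 1.19, 0.670 to 2.00), and its adaptor Nbn was at 49.8 and 61.3 CPM (ratio 0.812, 0.473 to 1.32). Only Rad50 of the complex had an interval without 1, and the differences between the subunits' ratios were not tested. Exons of Brca2 overlap those of N4bp2l1, and exons of Palb2 those of Dctn5, on the opposite strand in GENCODE vM39, and since the strand setting of the counting is not given in the sources used here, reads of such pairs may not be told apart.

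End joining genes were not lower as a group. The 5 genes summed to 176 CPM in KO LPS against 140 CPM in WT LPS (ratio 1.25, 0.945 to 1.64). Trp53bp1, the chromatin-bound protein that steers breaks towards end joining, was at 52.5 CPM (20 UMIs) and 29.7 CPM (59 UMIs), and its ratio of 1.77 (1.01 to 2.98) barely cleared 1. Prkdc, the catalytic kinase subunit of DNA-PK, was at 60.3 and 38.7 CPM (ratio 1.56, 0.933 to 2.51). The Ku subunits, which cap the broken ends, had 11 and 54 UMIs for Xrcc5 (28.8 and 27.1 CPM) and 7 and 69 UMIs for Xrcc6 (18.4 and 34.7 CPM). Their ratios of 1.06 (0.501 to 2.06) and 0.529 (0.205 to 1.15) both held 1. Lig4, the ligase that seals the ends, was at 15.7 and 10.1 CPM from 6 and 20 UMIs (ratio 1.56, 0.514 to 4.04).

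Among the checkpoint and p53 genes, the intervals of the damage-sensing kinases held 1 and the 3 genes with intervals below 1 were Trp53, Cdkn1a and Chek1. Atm, the kinase of the double-strand break response, was at 81.3 CPM in KO LPS against 59.8 CPM in WT LPS (ratio 1.36, 0.884 to 2.03). Atr, the kinase of stalled replication forks, was at 31.5 and 32.2 CPM (ratio 0.978, 0.480 to 1.83). Chek2, which acts below Atm, was at 34.1 and 25.1 CPM (ratio 1.36, 0.676 to 2.53). For Chek1, which acts below Atr, the KO LPS matrix held only missing values, read as 0 UMIs, and WT LPS had 24 UMIs in 21 cells (12.1 CPM). Against a floor of 3 counts in KO LPS, Chek1 was at least 1.53-fold lower there, while the upper end of the 95% counting interval of its ratio was 0.867.

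Trp53, which encodes p53, was at 89.2 CPM in KO LPS (34 UMIs in 27 cells) and 144 CPM in WT LPS (286 UMIs in 236 cells), a ratio of 0.620 (0.421 to 0.887). Its exons overlap those of Wrap53 on the opposite strand. Cdkn1a, the p53-induced inhibitor of cyclin-dependent kinases known as p21, was at 26.2 CPM (10 UMIs in 6 cells) and 78.9 CPM (157 UMIs in 115 cells), a ratio of 0.332 (0.156 to 0.627). Mdm2, the ubiquitin ligase that p53 induces and that degrades p53, did not share this direction. It was at 89.2 CPM in KO LPS against 64.4 CPM in WT LPS, and its ratio of 1.39 (0.920 to 2.04) held 1.

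Base excision and single-strand break repair held Parp1 and Parp2, the enzymes that mark strand breaks with poly(ADP-ribose), and the intervals of both held 1. Parp1 was at 134 CPM in KO LPS against 116 CPM in WT LPS (ratio 1.15, 0.833 to 1.57), and Parp2 at 99.7 and 120 CPM (ratio 0.833, 0.575 to 1.18). Apex1, the endonuclease that cuts the strand where a base has been removed, stood apart. It was at 42.0 CPM in KO LPS (16 UMIs in 15 cells) and 122 CPM in WT LPS (243 UMIs in 205 cells), a ratio of 0.343 (0.193 to 0.569). Its exons overlap those of Osgep and Pip4p1 on the opposite strand.

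The other genes of the pathway had few UMIs and intervals that held 1. Polb, the polymerase that fills the gap, was at 36.7 and 30.7 CPM (ratio 1.20, 0.618 to 2.17). Lig3, a ligase that seals the nick, was at 18.4 and 24.6 CPM (ratio 0.745, 0.285 to 1.65), and its scaffold Xrcc1 at 15.7 and 13.1 CPM (ratio 1.20, 0.405 to 2.99). Ogg1, the glycosylase for 8-oxoguanine, was at 13.1 CPM from 5 UMIs and 11.1 CPM from 22 UMIs (ratio 1.19, 0.351 to 3.21). The group of 8 summed to a ratio of 0.812 (0.674 to 0.973), and Apex1 was its only gene with an interval below 1.

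Nucleotide excision repair was, over all cells, the single group of the 6 whose summed interval lay above 1. The 8 genes were at 354 CPM in KO LPS against 281 CPM in WT LPS (ratio 1.26, 1.04 to 1.52). The interval held 1 against the WT LPS cells with fewest inflammatory UMIs (1.23, 0.976 to 1.55), and in cells without an S-phase UMI end joining also lay above 1 (1.37, 1.01 to 1.83). Ercc5, the endonuclease that cuts on the 3' side of a lesion, was at 131 CPM (50 UMIs in 37 cells) and 88.0 CPM (175 UMIs in 142 cells), a ratio of 1.49 (1.07 to 2.05), and was the only gene of the group with an interval above 1. In cells thinned to 500 UMIs it was at 87.5 and 82.7 CPM (ratio 1.06, 0.546 to 1.92), in 4.06% and 3.92% of cells against backgrounds of 4.91% and 4.64%, and the group was at 1.06 (0.760 to 1.45). The helicase subunit Ercc3 was at 34.1 and 24.1 CPM (ratio 1.41, 0.702 to 2.65), and Ercc1, part of the 5' endonuclease, at 18.4 and 11.6 CPM (ratio 1.59, 0.575 to 3.82).

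The intervals of the genes that recognise or verify lesions all held 1. Xpc, which recognises distorted DNA, was at 52.5 and 46.3 CPM (ratio 1.13, 0.662 to 1.85), and Xpa, which verifies the lesion, at 49.8 and 47.3 CPM (ratio 1.05, 0.608 to 1.74). Of the subunits of the ultraviolet damage sensor, Ddb1 was at 49.8 and 37.2 CPM (ratio 1.34, 0.764 to 2.24) and Ddb2 at 13.1 and 20.6 CPM (ratio 0.636, 0.196 to 1.61). Mismatch repair was the sparsest pathway, with 22 and 135 UMIs over 3 genes and a ratio of 0.850 (0.516 to 1.34). The mismatch sensors Msh3 and Msh6 had ratios of 1.02 (0.484 to 1.98) and 1.18 (0.438 to 2.73). Pms2, the endonuclease of the MutL complex, was at 10.5 CPM from 4 UMIs and 24.1 CPM from 48 UMIs, and its ratio of 0.435 (0.114 to 1.19) held 1 although it passed 2-fold. Pms2 also shares exon positions with Rsph10b on its own strand.

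The other 5 genes were too sparse for a ratio. In KO LPS and WT LPS, Brca1 had 1 and 10 UMIs, Fancd2, a central protein of crosslink repair, had 3 and 3, Ung, the uracil glycosylase, had 1 and 16, and Ercc2, a helicase of excision repair, had 2 and 12. Fanca, of the crosslink repair core complex, was read as 0 in KO LPS, where the matrix held missing values, and had 9 UMIs (4.52 CPM) in WT LPS. The KO LPS floor of 7.87 CPM lies above that level, so a difference in Fanca was not detectable at this depth.

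A wider list of 111 other repair genes also had few members past 2-fold. Of its 81 genes with enough UMIs, 10 were at least 2-fold lower in KO LPS (12.3%) and 1 was higher (1.23%), against the 15.3% and 13.5% of all genes. The median log2 ratio was -0.01 and the summed ratio 0.959 (0.908 to 1.01). The base excision genes of that list had a summed ratio of 0.670 (0.552 to 0.808), with 5 of 12 lower. Counting genes of 50 or more UMIs, the lowest log2 ratios were -1.78 for Tdg, a thymine DNA glycosylase, -1.73 for Rpa2, a subunit of the single-strand binding protein, and -1.58 for Rbbp8, which starts end resection. The highest were 0.86 for Ercc8, 0.84 for Wdr48 and 0.83 for Alkbh3.

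Target genes of p53 went in both directions. The 26 genes of the p53 list in the matrices had a summed ratio of 0.996 (0.889 to 1.11). Of the 15 with enough UMIs, 4 were lower (26.7%, against 15.3% of all genes) and 1 was higher (6.67%, against 13.5%) by at least 2-fold. Ddit4, an inhibitor of mTORC1, was at 73.4 CPM in KO LPS against 253 CPM in WT LPS (log2 ratio -1.76), and the pro-apoptotic Bax at 44.6 and 84.0 CPM (log2 ratio -0.88). Bcl2l1, an inhibitor of apoptosis, followed at -0.42. At the other end were Rrm2b, the p53-induced ribonucleotide reductase subunit (60.3 and 25.1 CPM, log2 ratio 1.28), Sesn1 (0.92) and Btg2 (0.77). The lower level of Cdkn1a in KO LPS was thus not shared by the sum of this list.

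Levels in cells were close to those in the barcodes of 1 to 100 UMIs. In WT LPS, the 41 genes were at 1926 CPM in cells and 2040 CPM in these barcodes, a ratio of 0.944 (0.868 to 1.03). In KO LPS they were at 1757 and 1540 CPM, a ratio of 1.14 (0.995 to 1.31). The WT LPS value depended on the barcodes used, since it was 1.32 against barcodes of 1 to 50 UMIs. By comparison, the microglia markers were at 1.54 (1.51 to 1.58) in WT LPS and at 1.12 (1.09 to 1.14) in KO LPS.

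Of 36 repair genes with at least 20 UMIs in WT LPS cells and barcodes, 13 had a log2 ratio above 0 (36.1%, against 63.5% of all genes). In cells, 5 were at least 2-fold higher (21.3% of all genes were), and 2 were at least 2-fold lower (2.87% of all). In KO LPS, 10 of 18 were above 0 (against 59.1% of all genes), and none was 2-fold higher or lower (against 8.28% and 2.18%). The 5 genes at least 2-fold higher in WT LPS cells were Mdm2, Cdkn1a, Ddb2, Ogg1 and Ercc1. Mdm2 was 2.54 times (1.25 to 6.01) and Cdkn1a 2.27 times (1.23 to 4.63) as high in cells as in barcodes, and Ddb2 had 41 UMIs in cells and 0 in barcodes, where the lower end of the interval was 1.69. Ogg1, with 0 UMIs in barcodes, had an interval from 0.870, and that of Ercc1 ran from 0.593 to 150, so both held 1. Summed, Mdm2, Cdkn1a and Ddb2 were at 129 CPM in KO LPS cells and 70.4 CPM in barcodes, a ratio of 1.82 (0.991 to 3.58). Their WT LPS sum is left out, since all 3 were counted above for being higher there.

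Among the 36 genes with at least 20 UMIs, the intervals of Prkdc, Msh3 and Brca2 lay wholly below their barcode level in WT LPS. The share of all genes with such an interval was not computed, so this is no result about repair genes as a set. Prkdc was at 0.489 (0.308 to 0.801) and Msh3 at 0.468 (0.274 to 0.834) of its barcode level, with spans of 204 and 143 kb, and Brca2 was at 0.517 (0.343 to 0.801). Brca2 spans less than Rad50 with its 58.3 kb, and Wrn, with 152 kb, was at 0.940. Brca1, outside the 36 with 10 UMIs in cells and 8 in barcodes, was at 0.198 (0.0705 to 0.579). Over the 36 genes, the ratio of cells over barcodes had a Spearman correlation of -0.50 with gene span in WT LPS, and of 0.02 over 18 genes in KO LPS. The points share libraries and depth, and these are descriptions across genes. The genotype ratio did not follow span among the repair genes (0.01, n = 36), while over 8327 genes the same correlation was 0.30.

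Set between the libraries, the barcodes of 1 to 100 UMIs showed part of the differences seen in cells. There the 41 genes were at 1540 against 2040 CPM (ratio 0.755, 0.657 to 0.866), against 0.913 in cells. Of 18 repair genes with at least 20 UMIs there, 2 had an interval below 1 (11.1%, against 12.5% of all genes) and 0 had one above 1 (against 18.2%). These were Brca2 and Trp53, the latter at 70.4 and 136 CPM (ratio 0.517, 0.261 to 0.964). Apex1 was at 0.454 (0.179 to 1.02), Rad50 at 0.738 (0.491 to 1.09), Ercc5 at 1.06 (0.570 to 1.93) and Palb2, with 9 and 11 UMIs, at 1.30 (0.476 to 3.45). The difference between the ratio in cells and that in barcodes was not tested, and the part of free RNA in the ratios in cells was not tested.

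At equal depth fewer intervals lay off 1. In cells thinned to 500 UMIs, 5 of 28 repair genes with at least 20 UMIs had an interval below 1 (17.9%, against 14.4% of all genes), namely Brca2, Blm, Trp53, Cdkn1a and Apex1. Palb2 alone had one above 1 (3.57%, against 13.8%), with 15 against 9 UMIs (ratio 7.43, 3.05 to 19.3). Between KO LPS and WT LPS, Cdkn1a had 0 against 54 UMIs and Blm had 0 against 31. The intervals of Rad50 (0.863, 0.587 to 1.24), Trp53bp1 (1.82, 0.739 to 4.12) and Ercc5 held 1, and Chek1 had 0 and 7 UMIs.

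**Figure D2:**
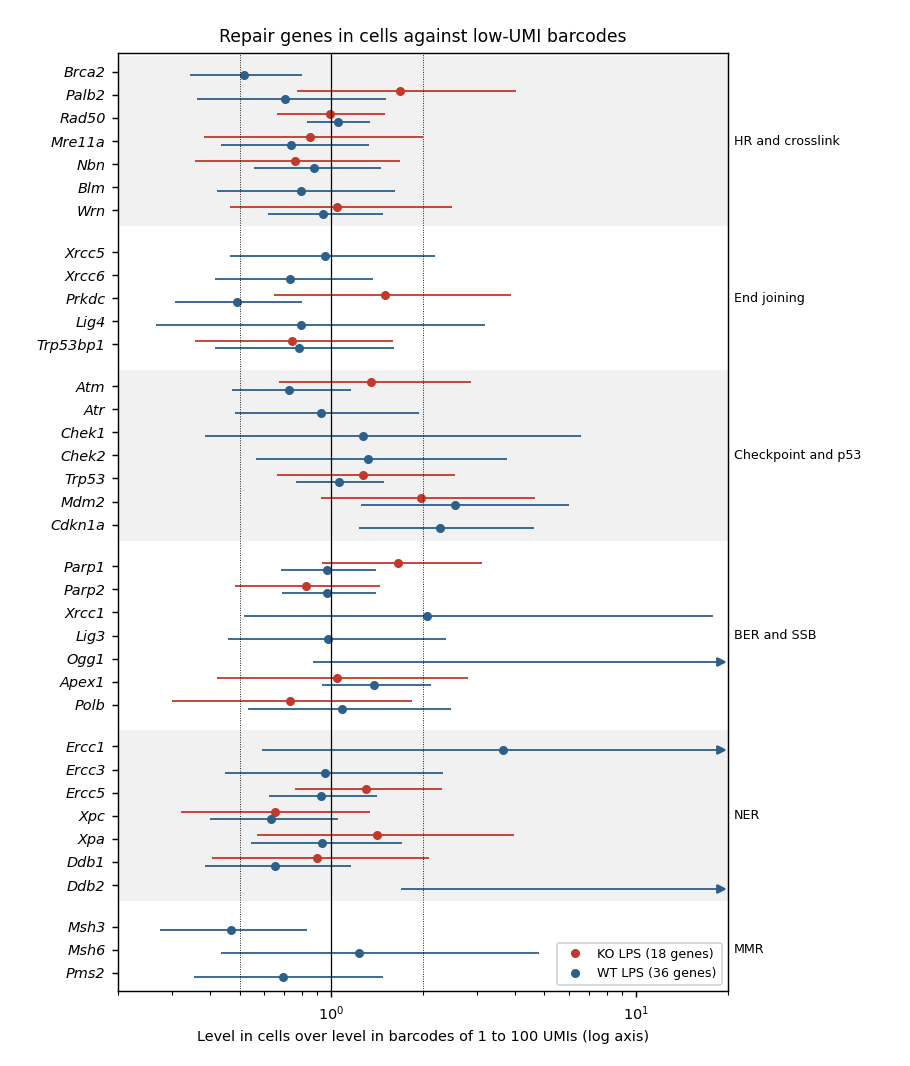
Level of each repair gene in cells over its level in barcodes of 1 to 100 UMIs, on a log axis, with exact 95% counting intervals, for KO LPS (red, 18 genes) and WT LPS (blue, 36 genes), each gene with at least 20 UMIs in that library. Arrows mark intervals that run past the axis, and Ogg1 and Ddb2, with 0 barcode UMIs in WT LPS, have no point. In WT LPS, Mdm2, Cdkn1a and Ddb2 lie above 1 with their whole intervals, while in KO LPS that of Mdm2 holds 1.

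Thinned to 500 UMIs each, most cells of both libraries held a repair gene UMI. The share was 55.0% (49.4 to 60.5) of KO LPS cells and 60.1% (57.5 to 62.7) of WT LPS cells. Droplets of 500 UMIs drawn from the barcodes of 1 to 100 UMIs would give 53.7% and 64.0%. The WT LPS share lay under this background beyond the interval and is not read as above it. This depends on the barcodes used, since the summed WT LPS level in cells was 1.32 times that in barcodes of 1 to 50 UMIs. A share expected from barcodes of 1 to 50 UMIs was not computed. The difference between libraries was -5.13 percentage points, and the outer limits of the 2 intervals allowed -13.3 to 3.01. Before thinning the shares were 76.6% and 83.9%, from a median of 1 repair gene UMI per cell in KO LPS and 2 in WT LPS.

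By pathway, the checkpoint and p53 genes of WT LPS were the group whose share exceeded its background beyond the interval, at 18.8% of cells (16.8 to 20.9) against 15.7%. In KO LPS the share for this pathway was 13.4% (9.90 to 17.7) against 10.9%. For homologous recombination the WT LPS share of 21.9% (19.8 to 24.2) lay under its background of 28.9%, and for end joining the share of 7.22% (5.93 to 8.69) lay under 9.78%. These shares, and those of mismatch repair (3.36%, 2.49 to 4.44, against 5.24%), are read as background. The WT LPS readings by pathway, above or below background, may depend on the barcodes used. Summed over all repair genes, the WT LPS ratio of cells over barcodes was 0.944 with the background barcodes. With barcodes of at most 50 UMIs it was 1.32. Pathway shares expected from the latter barcodes were not computed. No KO LPS share left its background by more than its interval.

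**Figure D3:**
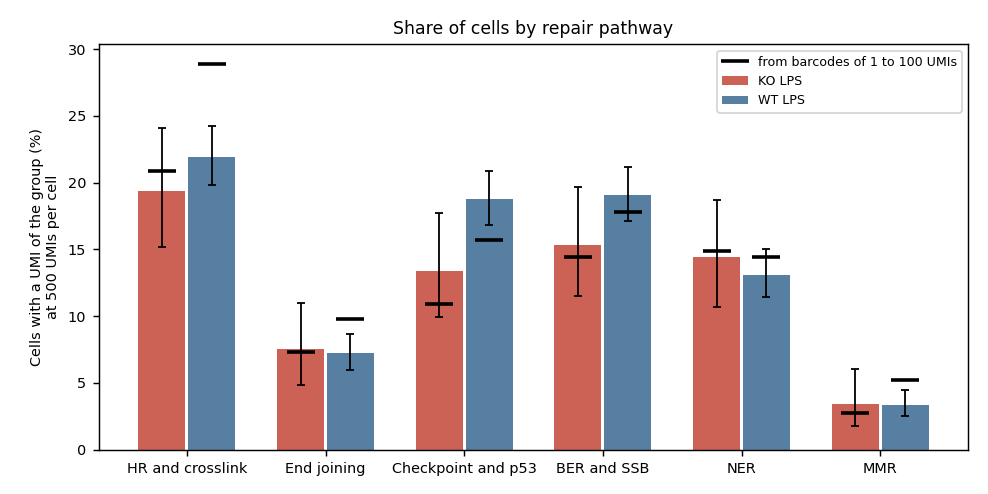
Share of cells, in percent, with at least 1 UMI of each repair pathway after thinning every cell to 500 UMIs, for 320 KO LPS cells (red) and 1427 WT LPS cells (blue). Error bars are exact 95% binomial intervals, and black dashes give the share expected of droplets of 500 UMIs drawn from the barcodes of 1 to 100 UMIs. The WT LPS bar for checkpoint and p53 genes stands above its dash, and those for homologous recombination, end joining and mismatch repair stand below.

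Within WT LPS, Brca2 was higher in cells that held S-phase transcripts. A list of 28 S-phase genes, none of them in the repair set, was used to class cells thinned to 500 UMIs, which gave 317 WT LPS cells with and 1110 without an S-phase UMI. The share of cells with such a UMI, 22.2%, was at its background of 22.3%, so that the class does not mark cycling cells by itself. In these thinned cells Brca2 was at 164 CPM (26 UMIs in 21 cells) with an S-phase UMI and at 34.2 CPM (19 UMIs in 18 cells) without, a ratio of 4.79 (2.55 to 9.16). From all UMIs of the same cells the levels were 110 and 31.9 CPM, a ratio of 3.45 (2.29 to 5.20), and 3.35 without the 3 cells with most S-phase UMIs.

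From all UMIs, 5 of 36 repair genes had an interval above 1 in cells with an S-phase UMI, against 4.15% of all genes, and 0 had one below 1, against 2.58% of all genes. Beside Brca2 these were Blm at 47.6 and 24.6 CPM (ratio 1.94, 1.10 to 3.35), Chek1 at 22.8 and 8.63 CPM (ratio 2.64, 1.07 to 6.39), Atr at 49.7 and 26.6 CPM (ratio 1.87, 1.08 to 3.18) and Xrcc6 at 51.8 and 29.2 CPM (ratio 1.77, 1.04 to 2.96). Of these 4, Atr, Xrcc6 and Chek1 were less firm than Brca2. In the thinned cells Atr had a ratio of 1.00 and Xrcc6 one of 0.609, each from 4 UMIs in cells with an S-phase UMI, and Chek1 reached 2.43 (0.952 to 5.99) without the 3 cells with most S-phase UMIs. Brca1, too sparse for the count, had 6 UMIs in the 317 cells and 4 in the 1110 cells. Rad50, the repair gene with most UMIs, was at 282 and 279 CPM.

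Promoter windows from RefSeq (GRCm38.p6, 250 bases before to 50 after the gene start) were read for 32 of the 41 genes, since E2F factors drive many S-phase genes through a short site. The letters TTTCCCGC, TTTCGCGC, TTTGCCGC and TTTGGCGC were searched on both strands. They were found in 5 of the 32 genes (15.6%), namely Brca2, Chek2, Xrcc6, Msh3 and Msh6, in 45.0% of 20 S-phase genes with a window and in 2.60% of 27025 genes. The letters CCAAT were found in 59.4% of the repair genes and in 41.1% of all. The 250 bases before the start are shown for 4 of the 5 genes with higher levels in cells with an S-phase UMI, on the strand of the gene, with matches to the E2F letters or to CCAAT in capitals. The windows are chr5:150522371-150522620 (plus strand) for Brca2, chr15:82016119-82016368 (plus strand) for Xrcc6, chr7:80534999-80535248 (minus strand) for Blm and chr9:36726659-36726908 (minus strand) for Chek1.
Brca2: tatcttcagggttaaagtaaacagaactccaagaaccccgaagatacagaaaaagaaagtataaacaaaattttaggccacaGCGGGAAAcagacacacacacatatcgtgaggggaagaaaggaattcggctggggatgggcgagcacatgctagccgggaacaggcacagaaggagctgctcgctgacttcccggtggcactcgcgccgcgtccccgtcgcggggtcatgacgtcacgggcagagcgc
Xrcc6: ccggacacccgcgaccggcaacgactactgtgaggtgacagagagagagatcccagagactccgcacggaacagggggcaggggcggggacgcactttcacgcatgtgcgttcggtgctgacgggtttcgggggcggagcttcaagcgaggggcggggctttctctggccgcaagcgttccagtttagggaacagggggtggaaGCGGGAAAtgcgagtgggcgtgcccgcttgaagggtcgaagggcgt
Blm: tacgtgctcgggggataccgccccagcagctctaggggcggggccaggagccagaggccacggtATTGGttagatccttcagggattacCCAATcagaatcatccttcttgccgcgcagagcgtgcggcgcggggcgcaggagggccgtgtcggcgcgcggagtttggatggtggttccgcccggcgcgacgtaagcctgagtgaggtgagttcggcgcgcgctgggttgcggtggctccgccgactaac
Chek1: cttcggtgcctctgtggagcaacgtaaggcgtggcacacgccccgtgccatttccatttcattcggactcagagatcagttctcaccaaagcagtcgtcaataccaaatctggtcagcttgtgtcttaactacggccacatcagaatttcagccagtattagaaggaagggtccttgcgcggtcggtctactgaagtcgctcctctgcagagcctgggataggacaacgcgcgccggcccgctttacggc
Brca2 has its E2F match at position -168 and Xrcc6 at -46, counted from the base before the start as -1. Blm has a pair of CCAAT matches, 1 on each strand, and no E2F match, and Chek1 has neither. Nor has Atr, the fifth of these genes, whose window is not printed since it holds no match and its ratio was 1.00 in the thinned cells. A match of letters is a description and not a shown binding site, and its absence from this window says nothing on the factor.

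S-phase genes were lower in KO LPS, and the Brca2 ratio held 1 among cells without an S-phase UMI. The S-phase list summed to 317 CPM in KO LPS against 655 CPM in WT LPS (ratio 0.485, 0.399 to 0.584). In the barcodes of 1 to 100 UMIs it was at 247 and 504 CPM (ratio 0.490, 0.348 to 0.678), and the share of thinned KO LPS cells with an S-phase UMI, 13.1%, was near its background of 11.6%. With genes of 0 UMIs in KO LPS at the floor of 3 counts, 10 of its 21 genes with enough UMIs were lower by at least 2-fold (47.6%, against 14.6% of all genes) and 0 were higher (against 13.5%). Its lowest and highest genes with at least 50 UMIs were Gmnn, the inhibitor of origin licensing, at 0 in KO LPS against 58 UMIs (3.71-fold lower or more against the floor, with an interval of the ratio up to 0.343), and Slbp at a log2 ratio of 0.34. A list of 21 mitosis genes, 5 of them with enough UMIs, went the other way, at 370 against 126 CPM (ratio 2.94, 2.38 to 3.63), but 121 of its 141 UMIs in KO LPS were in 3 cells. In thinned cells the ratio of 1.28 (0.787 to 2.02) held 1, and 3.44% of KO LPS cells and 4.56% of WT LPS cells held a mitosis UMI, both under the backgrounds of 7.27% and 11.2%. In cells without an S-phase UMI, Brca2 was at 24.0 CPM in KO LPS (8 UMIs) and 31.9 CPM in WT LPS (48 UMIs), a ratio of 0.752 (0.307 to 1.60). This interval overlaps that over all cells, and the difference was not tested. The S-phase list itself, from all UMIs of these cells, was still at 0.542 (0.413 to 0.702), so the class did not even out S-phase transcripts between libraries. In cells with an S-phase UMI, Brca2 had 0 UMIs over 42 KO LPS cells and 53 UMIs over 317 WT LPS cells, and the ratio was at most 0.731.

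For the other genes with intervals off 1, the ratios in cells without an S-phase UMI were close to those over all cells, while the intervals of Chek1 and Trp53bp1 came to hold 1. There Apex1 was at 0.349 (0.192 to 0.590), Cdkn1a at 0.333 (0.149 to 0.653), Trp53 at 0.677 (0.455 to 0.979), Rad50 at 0.666 (0.502 to 0.872) and Blm at 0.122 (0.00301 to 0.723). For Chek1, 0 UMIs in KO LPS stood against 13, and the interval reached 1.48. Palb2 stayed higher in KO LPS at 3.67 (2.10 to 6.35), as did Ercc5 at 1.70 (1.20 to 2.38), and Trp53bp1 was at 1.77 (0.964 to 3.11). The ratio over all 41 genes was 0.960 (0.878 to 1.05).

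Inflammatory transcripts and repair genes were spread unevenly over WT LPS cells. Thinned cells were ordered by their UMIs of the 25 inflammatory genes, and the 475 cells with most (5 to 78 UMIs) were set against the 476 with fewest (0 to 2 UMIs). Cdkn1a was at 114 CPM in the cells with most and 46.2 CPM in the cells with fewest, a ratio of 2.46 (1.18 to 5.49). From all UMIs of these cells it was at 118 and 47.3 CPM, a ratio of 2.49 (1.60 to 3.97), with 67.1 CPM in the 476 cells between. Cdkn1a was the single repair gene of 31 with enough UMIs whose interval lay above 1 (against 8.38% of all genes).

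The sum of the repair genes ran the other way. It was 1781 CPM in the thinned cells with most inflammatory UMIs and 2176 CPM in those with fewest, a ratio of 0.818 (0.718 to 0.932), and 0.880 (0.813 to 0.952) from all UMIs. The 111 other repair genes had a ratio of 0.848 (0.804 to 0.894) from all UMIs. From all UMIs, 3 repair genes had intervals below 1 (against 9.56% of all genes). Rad50 was at 244 and 329 CPM (ratio 0.741, 0.600 to 0.915), Prkdc at 23.0 and 54.0 CPM (ratio 0.425, 0.218 to 0.798) and Atr at 23.0 and 50.7 CPM (ratio 0.453, 0.231 to 0.858). The intervals of Prkdc and Atr held 1 without the 5% of cells with most UMIs, at 0.519 and 0.523, while Rad50 stayed at 0.741.

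**Figure D4:**
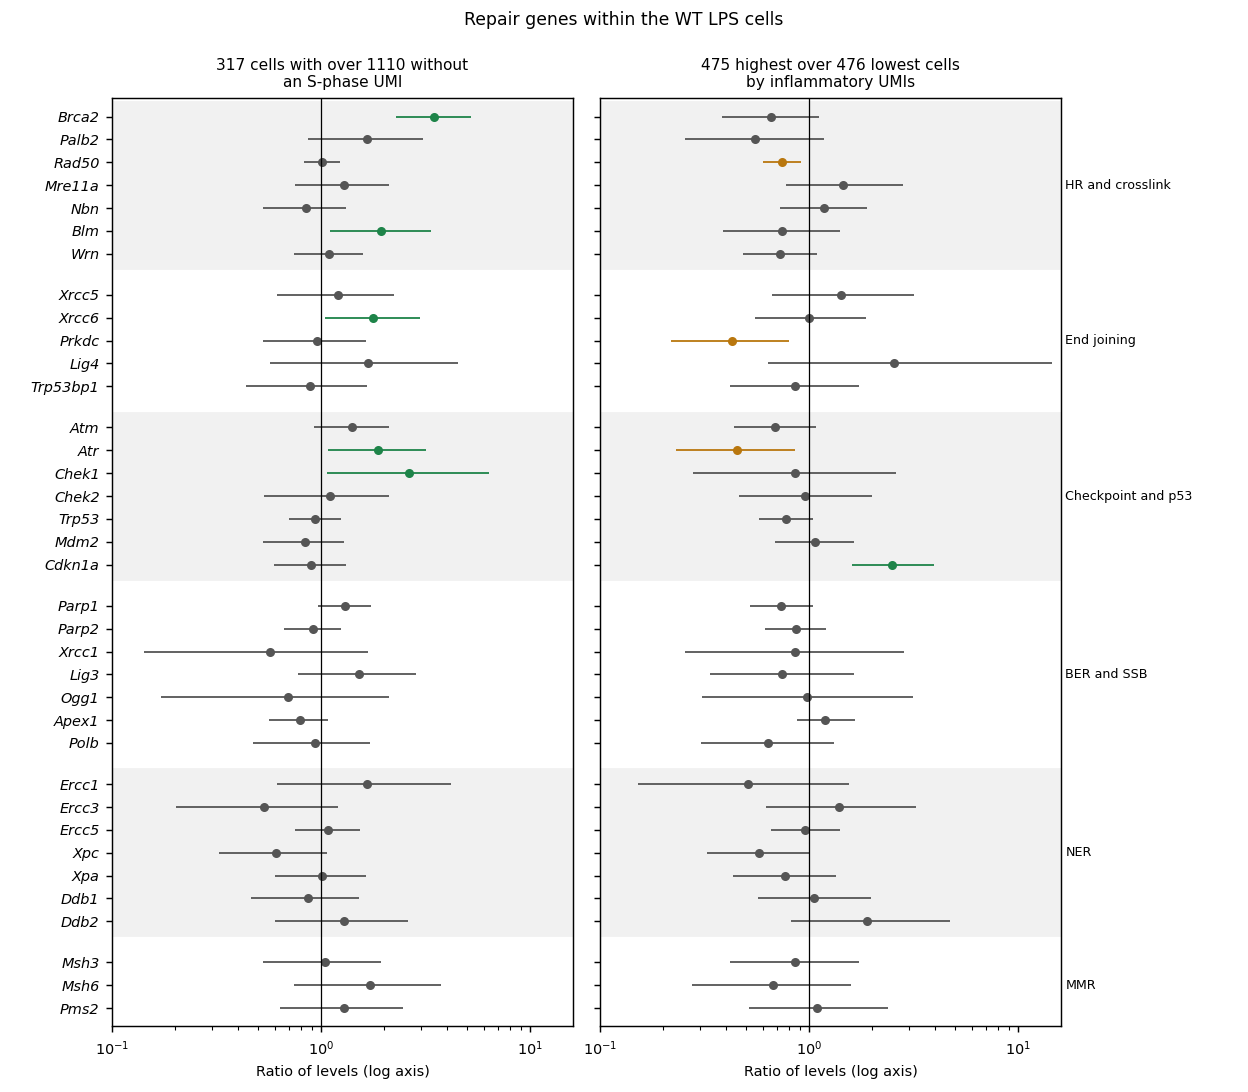
Ratio of the level of each repair gene between groups of WT LPS cells, on log axes with exact 95% counting intervals, from all UMIs of cells classed after thinning. Left, 317 cells with over 1110 cells without an S-phase UMI, where 5 genes have their whole interval above 1. Right, 475 cells with most over 476 cells with fewest inflammatory UMIs, where that of Cdkn1a lies above 1 and those of Rad50, Prkdc and Atr below, with orange for intervals below 1 and green for those above.

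Set against the 476 WT LPS cells with fewest inflammatory UMIs, KO LPS cells had Cdkn1a at 26.2 CPM against 47.3 CPM, and the ratio of 0.555 (0.240 to 1.18) held 1. The inflammatory list was still at 949 CPM in KO LPS against 4092 CPM in these WT LPS cells (ratio 0.232, 0.207 to 0.259). The choice of cells thus did not even out inflammatory transcripts between libraries. The ratio of Apex1 was as low as before, at 0.360 (0.195 to 0.627), as were those of Rad50 at 0.589 (0.445 to 0.774) and Trp53 at 0.523 (0.344 to 0.778). Palb2 was at 2.25 (1.23 to 4.20). The intervals of Ercc5 at 1.39 (0.928 to 2.07) and Trp53bp1 at 1.73 (0.867 to 3.46) held 1 in this comparison. Wrn, at 0.565 (0.321 to 0.957), and the checkpoint and p53 group, at 0.768 (0.620 to 0.948), came to lie below 1, and the sum of the 41 genes was at 0.847 (0.769 to 0.931). KO LPS could not be split in the same way, since most of its cells had 0 inflammatory UMIs after thinning.

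As each library pooled a female and a male mouse, the comparison was repeated in cells with a UMI of Xist, a transcript of female cells, 209 in KO LPS and 645 in WT LPS. Free RNA can give such a UMI to a male cell. Thinned, 53.4% of KO LPS and 28.2% of WT LPS cells held one, under the backgrounds of 60.9% and 40.8%, and 9 of these KO LPS cells and 80 of these WT LPS cells also held a Y-linked UMI, so the class is only an approximate stand-in for the female mouse. In these cells the ratio was 4.30 (2.12 to 8.81) for Palb2, 0.196 (0.0624 to 0.474) for Cdkn1a, 0.271 (0.121 to 0.530) for Apex1, 0.560 (0.345 to 0.871) for Trp53 and 0.724 (0.531 to 0.971) for Rad50. Brca2 was at 22.1 and 41.1 CPM, and its ratio of 0.537 (0.187 to 1.27) held 1, as did those of Blm at 0.321 (0.0367 to 1.29) and Ercc5 at 1.30 (0.828 to 1.98). Prkdc, at 77.3 and 35.4 CPM, had a ratio of 2.18 (1.21 to 3.83). With at least 20 UMIs in these cells, 3 of 32 repair genes had an interval above 1 (9.38%, against 18.4% of all genes) and 4 had one below 1 (12.5%, against 18.5%). Only 12 KO LPS cells had a Y-linked UMI and no Xist UMI, against 195 in WT LPS, and among them 4 genes had intervals above 1, from few UMIs. With at least 20 UMIs in these cells, 2 of 11 repair genes did (18.2%, against 6.60% of all genes) and 0 had one below 1 (against 2.69%). Cdkn1a had 4 and 21 UMIs (ratio 4.05, with an interval from 1.01), Ercc3 had 3 and 8 (ratio 7.98, 1.36 to 33.3), Ogg1 had 3 and 1 (ratio 63.9, 5.13 to 3352) and Ercc5 had 8 and 21 (ratio 8.11, 3.11 to 19.1). These 12 cells held 8 of the 50 Ercc5 UMIs of KO LPS. Cells with neither marker can come from either mouse and were not split, and mouse and genotype cannot be told apart.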

How the data were processed

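Drop-seq libraries of sorted CD11b+CD45int brain cells from LPS-treated KO and WT mice, 1 library per genotype, were used. The authors deposited 1 matrix of raw counts per library, that is UMI counts per gene and barcode, with no normalization. Per the labels, processing used bcl2fastq 2.0 and STAR, with mm9 and mm10 named as builds and no role given. The annotation, counting program and strand setting are not given in the sources used here. Missing values were read as 0. Groups came from the genotype labels. All barcode columns were matched to a library by name.

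Cells were barcodes with at least 500 UMIs and 100 genes, a fixed cut in place of the droplet caller of the study. Doublets were left in. UMIs were summed over cells and scaled to 1e6 per library. Ratios had exact conditional binomial intervals, levels exact Poisson intervals and shares exact Clopper-Pearson intervals, all at 95% and for counting error only. Log2 ratios used a prior count of 0.5, and genes needed at least 20 UMIs over both libraries. A difference of 2-fold or more was counted. The floor was 3 counts per library. Cells were thinned to 500 UMIs without replacement, in 1 random draw. Alternatives changed the scaling, filters, cells, barcodes and pooled mice. Named were all repair genes with at least 20 UMIs, the 3 highest and 3 lowest other repair genes and p53 targets, and the highest and lowest S-phase gene, each with at least 50 UMIs. The repair genes and lists were chosen with earlier results of these data known. The other 5 repair genes and the Wrap53, N4bp2l1, Dctn5, Osgep, Pip4p1 and Rsph10b overlaps were named after values were seen. Overlaps came from GENCODE vM39, in which all 41 genes matched by symbol, and exons of 23 overlapped a protein-coding gene on the opposite strand. Scripts ran in Python 3.11.15 with scipy 1.17.1, numpy 2.4.6 and pandas 2.3.3, figures in matplotlib 3.10.9, and the ratio scripts were tested on simulated data.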

Additional observations from a re-analysis of the deposited data

Results flagged for a closer look

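Barcodes of 101 to 499 UMIs entered no main comparison above, though an alternative with cells of at least 300 UMIs took in some of them. Summed over them, the repair genes were at 2034 CPM in KO LPS against 2016 CPM in WT LPS (ratio 1.01, 0.870 to 1.17). In these barcodes 2 genes were higher in KO LPS than in WT LPS beyond counting error. Of the 29 repair genes with at least 20 UMIs there, 1 had an interval above 1 (3.45%, against 14.9% of all genes) and 2 had one below 1 (6.90%, against 8.81% of all genes), so neither share exceeded that of all genes. Xrcc5, a Ku subunit, had 6 and 11 UMIs (57.3 and 14.5 CPM), a ratio of 3.95 (1.20 to 11.7), against 1.06 in cells. Ercc5, the 3' endonuclease of excision repair, had 21 and 64 UMIs (201 and 84.3 CPM), a ratio of 2.38 (1.38 to 3.95), in the same direction as in cells. Those below 1 were Brca2 at 0.117 (0.00291 to 0.676) and Rad50 at 0.446 (0.246 to 0.750), in the same direction as in cells. The differences between these barcodes and cells were not tested.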

How the results depend on the processing

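The median log2 ratio of 0.17 was 0.01 as a mean of single-cell CPM, -0.20 in thinned cells, -0.05 without the 5% deepest cells, 0.39 in cells with a Y-linked UMI and -0.05 against the WT LPS cells with fewest inflammatory UMIs. The count of 6 genes at least 2-fold lower was 3 in cells with a Xist UMI and 3 against the WT LPS cells with fewest inflammatory UMIs. The count of 1 higher gene was 2 as a mean of single-cell CPM, in thinned cells, with at least 1 UMI and without the 5% deepest cells, 3 in cells with a Xist UMI and in those with a Y-linked UMI, and 4 in cells of at least 1000 UMIs. The summed ratio of 0.913 was 1.19 in cells with a Y-linked UMI, and the WT LPS ratio of cells over barcodes of 0.944 was 1.32 with barcodes of 1 to 50 UMIs. In the 12 KO LPS cells with a Y-linked UMI, 11 of 36 genes changed sign, as did 11 in thinned cells. In the former, 3 of them were past 2-fold over all cells, with log2 ratios of 2.16 for Cdkn1a, 0.71 for Chek1 (0 UMIs in KO LPS, a product of the prior count) and 0.32 for Pms2 (also 0 UMIs in KO LPS). Of the 11 genes, 7 had 0 UMIs in those KO LPS cells, so that their values rest on the prior count. The causes were not tested. Over 396 values of single genes under 11 alternatives, 373 stayed within the counting interval of the reported ratio and 20 left it. The other 3 were reversed, namely the values of Cdkn1a, Chek1 and Pms2 given above. The alternatives without S-phase UMIs and with the fewest inflammatory UMIs, the levels from all UMIs of classed cells and those without the 3 or the 5% of cells were chosen after seeing the data.

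No paired analysis was possible because each genotype had 1 library. Depth limits single genes: KO LPS held 670 repair gene UMIs, and the 3 cells with most of them gave 4.63%.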
